A study of Mus musculus with 8 samples.

Results

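Enah, Vasp and Evl, the mouse genes of the Ena/VASP family, were examined with 3 genes for proteins that work with them, Zyx, Pfn1 and Pfn2. They were found by gene name in each library and were 6 of the 22050 genes with an mRNA model. They filled 7 rows, because Pfn1 was listed as a copy on each of 2 contigs, and its copies were summed. The 6 genes were chosen by function and with their exon reads at the ages already known, so the values of that comparison are given below as a description, without a test.

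Ena/VASP proteins bind the growing end of actin filaments, keep capping proteins away from it and lengthen the filament, and so act on lamellipodia, filopodia, adhesion sites and, in platelets, on the shape change that accompanies activation. Their EVH1 domain docks on proline-rich stretches of partners such as zyxin, which bring them to adhesions and stress fibres. Profilins hand over actin monomers, which both Ena/VASP proteins and formins then add to filaments.

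The cells were haematopoietic stem cells (HSCs), which renew themselves and give rise to every kind of blood cell, and were sorted from bone marrow of the inbred mouse strain C57BL/6. The gate took cells with CD150 and EPCR and without CD48 or lineage markers. There were 4 libraries from mice at 4 weeks of age and 4 from pups at postnatal day 5 (P5), each made from 100 sorted cells, and no treatment or allele is named for either age. Whether each library had its own mouse is not stated in the labels. Error bars and p-values thus cover the spread between these libraries, which may be technical in part or, at 4 weeks, in whole. The mRNA of sorted pools cannot tell fewer expressing cells from less RNA per cell.

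Exon reads of genes with an mRNA model numbered 5775130 to 7212446 per library at 4 weeks and 6142760 to 7470777 at P5. The transcripts of the gate were present at both ages, with Slamf1, which encodes CD150, at 36.6 ± 4.404 CPM (exon reads scaled to library size) at 4 weeks and 33.8 ± 4.69 at P5, and Procr, which encodes EPCR, at 57.1 ± 8.03 CPM at 4 weeks and 55.0 ± 7.996 CPM at P5 (SD, n = 4 each). Cd48 was at 5.10 ± 2.66 CPM at 4 weeks and 4.98 ± 3.57 CPM at P5 (SD, n = 4 each). The HSC markers, led by the transcription factor Hlf, summed to 3785 to 4283 CPM at 4 weeks and 4205 to 4617 CPM at P5. Of these 8 genes, 3 were called in the edgeR fit across all genes, against 16.5% of all tested genes. Ly6a was higher, at 85.9 ± 17.8 CPM at 4 weeks and 29.6 ± 4.00 CPM at P5 (edgeR adjusted p = 1.5e-05). Fgd5 was lower, at 285 ± 15.4 and 433 ± 22.6 CPM (7.7e-05), and so was Mecom, at 560 ± 35.2 and 716 ± 70.6 CPM (0.0106, SD, n = 4 each). Reads of Y-linked genes numbered at least 8880 in every 4-week library and in P5 replicates 2 and 4, but 59 and 71 in P5 replicates 1 and 3, so 6 libraries passed the 100 reads that counted as presence. Y-linked genes mark male cells, so the P5 libraries were not all from the same mouse or pool. Every 4-week library passed but P5 replicates 1 and 3 did not, so age and sex were partly mixed. P5 replicate 1 had the lowest share of intron reads of any library, 60.1%, against 66.8 to 68.7% in the other 7.

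The genes lie on 6 chromosomes of GRCm38.p6, the assembly of the submitters' mm10 build, with positions taken from RefSeq. Enah is on chromosome 1 (181896384 to 182027556, minus strand), Vasp on chromosome 7 (19256929 to 19271854, minus strand) and Evl on chromosome 12 (108554681 to 108688516, plus strand). Zyx is on chromosome 6 (42349511 to 42360213, plus strand), Pfn1 on chromosome 11 (70651844 to 70656799, minus strand) and Pfn2 on chromosome 3 (57841895 to 57847757, minus strand). The 250 bases before the start site listed by RefSeq are shown for Enah, Evl and Zyx, because these are the members whose exon reads passed the threshold used across all genes. They cover chr1:182019981-182020230 on the minus strand, chr12:108554470-108554719 on the plus strand, for the first of 2 Evl start sites, and chr6:42349578-42349827 on the plus strand. The Enah and Zyx stretches lie inside the gene spans given above, and the Evl stretch overlaps the start of its span. The start sites used are therefore not the outer ends of these spans. Sequences are written 5′ to 3′ in the direction of the gene, in lower case, and capitals mark the GC box, GGGCGG on either strand.
Enah: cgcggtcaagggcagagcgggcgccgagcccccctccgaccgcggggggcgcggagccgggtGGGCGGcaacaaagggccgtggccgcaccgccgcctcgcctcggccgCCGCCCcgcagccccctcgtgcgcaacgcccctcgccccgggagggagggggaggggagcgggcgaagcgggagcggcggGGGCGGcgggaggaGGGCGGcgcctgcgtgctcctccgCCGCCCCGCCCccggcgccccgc
Evl: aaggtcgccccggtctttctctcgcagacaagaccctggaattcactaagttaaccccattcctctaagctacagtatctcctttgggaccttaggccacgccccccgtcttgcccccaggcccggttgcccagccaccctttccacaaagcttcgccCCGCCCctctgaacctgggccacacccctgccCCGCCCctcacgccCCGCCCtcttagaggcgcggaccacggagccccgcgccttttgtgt
Zyx: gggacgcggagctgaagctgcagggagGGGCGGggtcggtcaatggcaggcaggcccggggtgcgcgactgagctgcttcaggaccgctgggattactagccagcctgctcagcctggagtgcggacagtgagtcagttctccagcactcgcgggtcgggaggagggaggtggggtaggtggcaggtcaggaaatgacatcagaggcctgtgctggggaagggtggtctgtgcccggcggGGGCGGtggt

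The Enah stretch held 6 GC boxes, 2 of which overlap in the last run of capitals, the Evl stretch 3 and the Zyx stretch 2. Over 250 bases before and 50 bases after the start, 83.3% of Enah bases were G or C, a share above that of 99.7% of the 32851 promoters in the table, and the share was 66.3% for Evl and 68.3% for Zyx. A GC box stood in 5 of the 7 start-site windows of the 6 genes and in 35.7% of all promoters, and neither Vasp nor the second Evl start site had one. The E box CACGTG was found at Pfn2 alone among the members, and in 7.15% of all promoters. A CArG box, the element bound by serum response factor (SRF), was in 1.63% of all promoters and in none of the 7 windows, and the same was true of the CRE (TGACGTCA, 1.79%), a GATA motif (AGATAA, 11.2%), an ETS motif (CCGGAA, 14.9%) and an interferon-response core (GAAANNGAAA, 3.44%). Each motif was searched on both strands. These matches describe the letters in the windows and carry no information on binding.

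Within the family, Enah was higher at 4 weeks, Evl was lower and Vasp was near the same level at both ages. Zyx was lower at 4 weeks by a smaller factor, and Pfn1 varied within a similar range at both ages. In the fit of exon reads over 12235 genes, 1 of the 6 members was past the threshold as higher at 4 weeks, 2 were past it as lower and 3 were not, against 8.55% of all tested genes higher and 7.99% lower. Ranges of the ages did not overlap for 4 of the 6 members and for 21.2% of all tested genes. The choice of the members used this comparison, so nothing is read from these counts.

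Enah encodes Mena, the family member best known from neurons and motile cells. Its exon reads numbered 339, 449, 300 and 498 in 4-week replicates 1 to 4, and 42, 33, 43 and 73 in P5 replicates 1 to 4. Every 4-week library thus lay above every P5 library, and the highest P5 value came from replicate 4. Scaled to library size, Enah stood at 62.6 ± 12.7 CPM at 4 weeks and 7.02 ± 2.31 CPM at P5 (SD, n = 4 each), an 8.87-fold higher level at 4 weeks (log2 fold change 3.15, SE 0.215). Nearly all of these reads, 99.9% at 4 weeks and 100% at P5, were mapped uniquely. The coefficient of variation of its exon reads was 23.3% at 4 weeks and 36.5% at P5, above the 5.02% at 4 weeks and 14.5% at P5 that counting error alone would give.

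Intron and junction reads of Enah come from the same libraries and the same comparison, and are likewise given as a description. Both were higher at 4 weeks. Intron reads stood at 43.2, 96.5, 59.2 and 88.9 CPM in 4-week replicates 1 to 4, and at 4.25, 9.21, 11.3 and 26.6 CPM in P5 replicates 1 to 4. The ages did not overlap, and the spread within P5 was wide, with replicate 4 highest and replicate 1 lowest. The log2 fold change in intron reads was 2.47 (SE 0.439). Junction reads, which cross from one exon to the next, numbered 27, 27, 23 and 29 at 4 weeks and 4, 6, 3 and 9 at P5, and scaled junction reads were 5.20-fold higher at 4 weeks. Introns held 70.2% ± 4.44 of the gene's reads at 4 weeks and 73.0% ± 14.5 at P5 (SD, n = 4 each), ranges that overlapped. An unnamed RefSeq locus, LOC102642986, overlaps Enah by 451 bases and had at most 18 reads in any library.

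Evl, the family member named for its likeness to Ena and VASP, has been studied in lymphocytes. It had 93, 115, 111 and 137 exon reads in 4-week replicates 1 to 4, and 399, 254, 241 and 316 in P5 replicates 1 to 4. The ages did not overlap, and P5 replicate 1 was the highest library. The level was 18.0 ± 2.28 CPM at 4 weeks and 44.3 ± 7.16 CPM at P5 (SD, n = 4 each), 2.46-fold lower at 4 weeks (log2 fold change -1.30, SE 0.149). Only 51.9% of its exon reads at 4 weeks and 56.1% at P5 were mapped uniquely, and with uniquely mapped reads alone the log2 fold change was -1.41.

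Most Evl reads came from introns, 90.9% ± 1.13 at 4 weeks and 88.8% ± 2.48 at P5 (SD, n = 4 each), the largest share among the 6 genes at either age. Intron reads stood at 71.1, 108, 77.7 and 84.4 CPM in 4-week replicates 1 to 4, and at 217, 163, 170 and 205 CPM in P5 replicates 1 to 4. No 4-week library reached the lowest P5 library, and the log2 fold change of -1.15 (SE 0.140) was close to that of exon reads. Junction reads stood at 5.67 ± 0.682 CPM at 4 weeks and 14.8 ± 2.54 CPM at P5 (SD, n = 4 each), 2.60-fold lower at 4 weeks. The microRNA gene Mir342 lies within Evl and had 0 reads in all 8 libraries, which were not made to capture mature microRNAs. Degs2, a sphingolipid desaturase gene on the opposite strand, overlaps Evl by 1726 bases. The kit does not mark strand, so reads in the overlap could belong to either gene. Degs2 had 4 to 18 gene reads, exon and intron together, at 4 weeks and 57 to 70 at P5, and differed in the same direction. In exon reads Degs2 stood at 0.657 ± 0.260 CPM at 4 weeks and 2.54 ± 0.896 CPM at P5 (SD, n = 4 each). Evl stood at 18.0 CPM at 4 weeks and 44.3 CPM at P5 by the same measure. The part of Degs2 in the Evl values was not tested.

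Vasp, the founding member known from platelets, is held at adhesions by zyxin and vinculin and is phosphorylated by cyclic nucleotide-dependent kinases. It had 84.5, 52.9, 69.8 and 81.9 exon CPM in 4-week replicates 1 to 4, and 72.4, 68.4, 60.9 and 78.8 CPM in P5 replicates 1 to 4. The P5 range lay wholly inside the 4-week range. The means were 72.3 ± 14.4 CPM at 4 weeks and 70.1 ± 7.49 CPM at P5 (SD, n = 4 each), with a log2 fold change of 0.04 (SE 0.139). Intron reads stood at 29.3 ± 7.62 CPM at 4 weeks and 26.4 ± 3.99 CPM at P5, and junction reads at 24.98 ± 7.10 CPM at 4 weeks and 23.5 ± 2.31 CPM at P5 (SD, n = 4 each). All 3 counts therefore overlapped between the ages, and 4-week replicate 2 was the lowest library in each. About 65.4% of Vasp exon reads at 4 weeks and 64.9% at P5 were unique. An unnamed locus, LOC102637572, overlaps Vasp by 752 bases and had 106 to 289 gene reads at 4 weeks and 227 to 325 at P5, ranges that overlapped, and without strand the reads in the shared bases could belong to either.

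**Figure D1:**
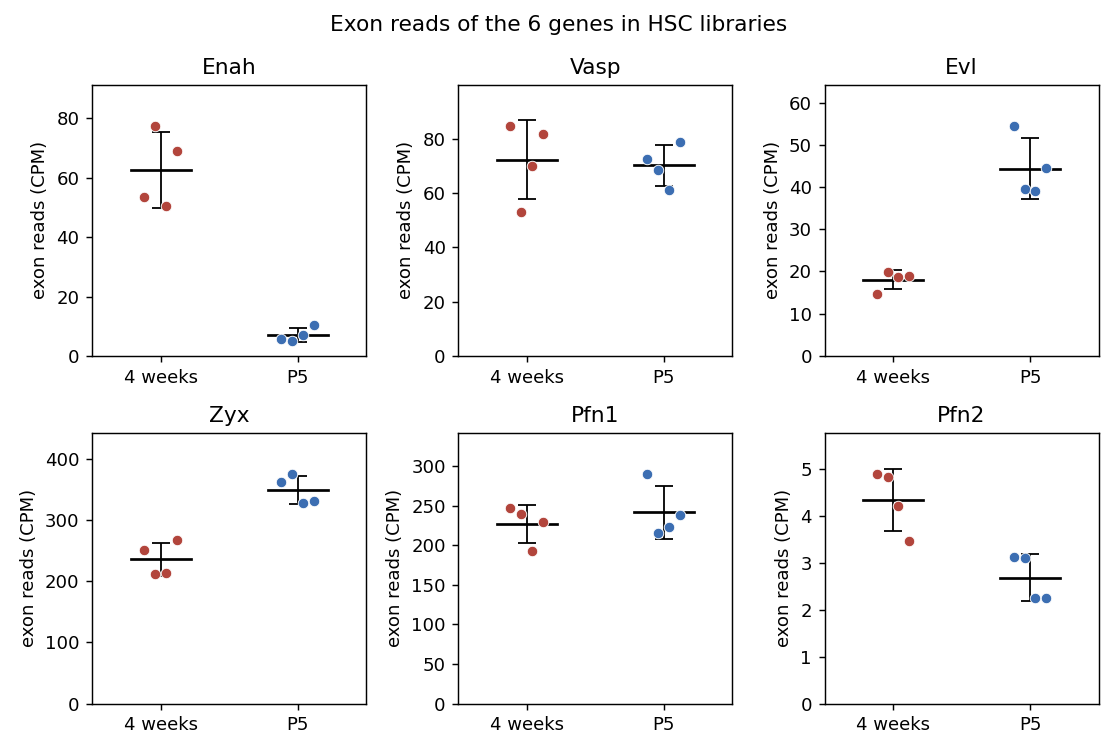
Exon reads of the 6 genes in CPM (y axes, each from 0, with its own scale) in the 4-week and the P5 libraries (points, 4 each), with the mean (horizontal line) and SD (error bar). Enah runs from 50.5 to 77.4 CPM at 4 weeks and 5.13 to 10.3 CPM at P5, Evl and Zyx are lower at 4 weeks, and the ages overlap for Vasp and Pfn1.

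Zyx encodes zyxin, a LIM protein of focal adhesions and stress fibres whose proline-rich repeats recruit Ena/VASP proteins. It had 1586, 1230, 1268 and 1923 exon reads in 4-week replicates 1 to 4, and 2656, 2411, 2027 and 2345 in P5 replicates 1 to 4. All 4-week libraries were below all P5 libraries, by a narrow margin in raw reads. The level was 236 ± 27.2 CPM at 4 weeks and 349 ± 23.3 CPM at P5 (SD, n = 4 each), 1.48-fold lower at 4 weeks (log2 fold change -0.57, SE 0.0899). Junction reads stood at 56.7 ± 5.88 CPM at 4 weeks and 79.97 ± 4.91 CPM at P5 (SD, n = 4 each), again without overlap.

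The intron reads of Zyx did not separate the ages. They stood at 32.8, 27.3, 28.8 and 35.0 CPM in 4-week replicates 1 to 4, and at 42.9, 48.1, 23.7 and 41.1 CPM in P5 replicates 1 to 4, so that P5 replicate 3 lay below every 4-week library and the other 3 lay above. The log2 fold change was -0.33 (SE 0.197), and -0.51 without P5 replicate 3, a library with few Y-linked reads. Introns took 21.9% ± 0.488 of Zyx reads at 4 weeks and 17.3% ± 3.72 at P5 (SD, n = 4 each), shares that did not overlap. Epha1, an ephrin receptor gene on the opposite strand, overlaps Zyx by 1728 bases and had 246 to 541 gene reads at 4 weeks and 592 to 1005 at P5. It thus differed in the same direction as Zyx, and without strand the 2 genes' reads in the overlap cannot be told apart. In exon reads Epha1 stood at 15.1 ± 3.36 CPM at 4 weeks and 27.8 ± 8.95 CPM at P5 (SD, n = 4 each). Zyx stood at 236 CPM at 4 weeks and 349 CPM at P5 by the same measure. The part of Epha1 in the Zyx values was not tested.

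Pfn1 and Pfn2 encode profilins, Pfn1 the form found in most cells and Pfn2 the form best known from brain. Pfn1 had 247, 239, 192 and 229 exon CPM in 4-week replicates 1 to 4, and 289.96, 216, 223 and 238 CPM in P5 replicates 1 to 4. The ages overlapped, with P5 replicate 1 above all others, and the log2 fold change was -0.09 (SE 0.105). Hardly any Pfn1 exon read was unique, 0.0651% at 4 weeks and 0.0118% at P5, because the gene stands on 2 contigs with near-identical copies, and the rule by which reads were divided between them is not known. The second copy took 14.2 to 35.2% of Pfn1 reads at 4 weeks and 17.4 to 34.3% at P5, most in replicate 2 of each age. Intron reads of Pfn1 stood at 13.5 ± 1.79 CPM at 4 weeks and 16.1 ± 1.48 CPM at P5, and junction reads at 54.6 ± 7.33 CPM at 4 weeks and 56.8 ± 6.89 CPM at P5 (SD, n = 4 each), and both overlapped.

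Pfn2 was the least abundant member in raw reads, with 31, 28, 25 and 25 exon reads in 4-week replicates 1 to 4, and 23, 20, 14 and 16 in P5 replicates 1 to 4. The ranges did not overlap, yet the counting error of 19.2% at 4 weeks and 23.4% at P5 was at least as large as the spread between libraries. The level was 4.35 ± 0.667 CPM at 4 weeks and 2.69 ± 0.498 CPM at P5 (SD, n = 4 each), with a log2 fold change of 0.68 (SE 0.330), which was not past the threshold. Intron reads leaned the other way, with 2.34 ± 0.552 CPM at 4 weeks and 3.12 ± 1.20 CPM at P5 (SD, n = 4 each) and overlapping ranges. With exon and intron reads added together, the log2 fold change was 0.017. Junction reads of Pfn2 were found in 2 libraries, 4 in 4-week replicate 2 and 1 in P5 replicate 3.

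**Figure D2:**
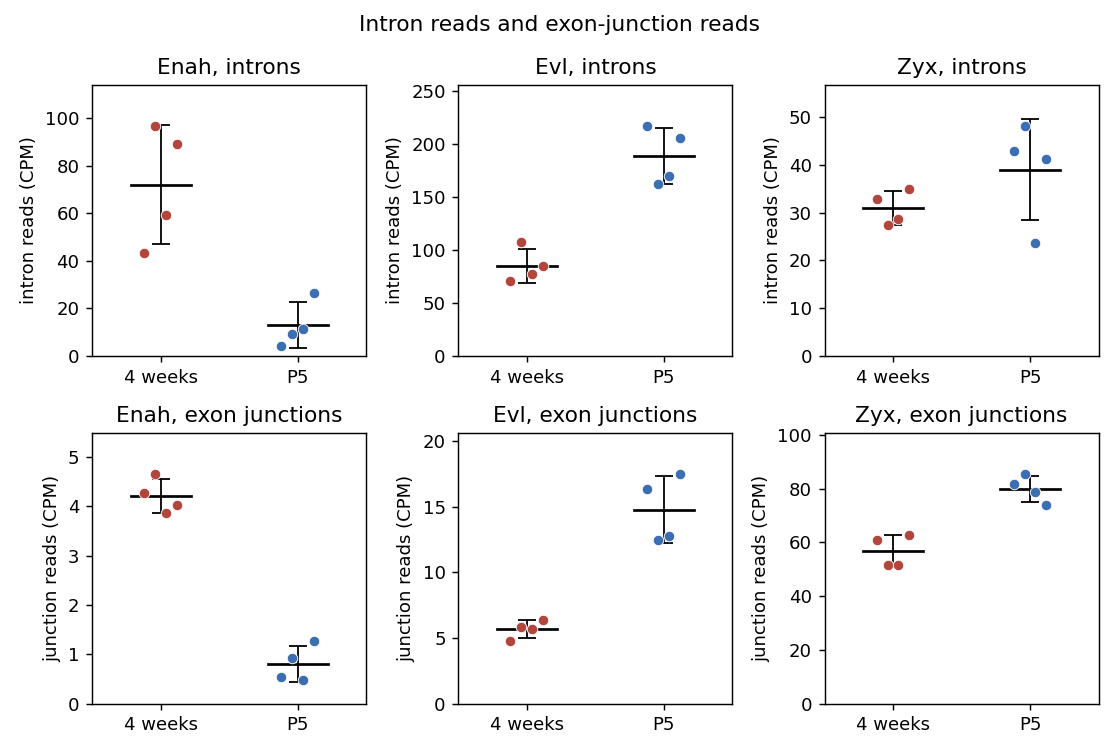
Intron reads (upper row) and exon-junction reads (lower row) of Enah, Evl and Zyx in CPM (y axes from 0) in the 4-week and the P5 libraries (points, 4 each), with mean (line) and SD (error bar). The ages separate in 5 of the 6 panels, and in the intron panel of Zyx P5 replicate 3, at 23.7 CPM, lies below all 4-week libraries.

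Across intron reads, fitted over 13180 genes, Enah was past the threshold as higher at 4 weeks and Evl as lower, and the other 4 members were not past it. Of all genes tested on introns, 8.86% were higher and 9.01% lower at 4 weeks. Ranges of intron CPM did not overlap for 2 of the 6 members and for 22.9% of all genes. As with exon reads, nothing is read from these counts. The difference of the means had the same sign in exon, intron and junction reads for Enah, Evl, Zyx, Vasp and Pfn1, and only Pfn2 had opposite signs in exon and intron reads. The share of exon reads that cross a junction was 31.5% at 4 weeks and 33.4% at P5 for Evl, and 34.2% at 4 weeks and 33.6% at P5 for Vasp. It was 24.1% at 4 weeks and 22.9% at P5 for Zyx, and 24.02% at 4 weeks and 23.6% at P5 for Pfn1, and it overlapped between the ages for each of these genes. For Enah it was 6.87% ± 1.105 at 4 weeks and 11.8% ± 4.81 at P5 (SD, n = 4 each), also with overlap.

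**Figure D3:**
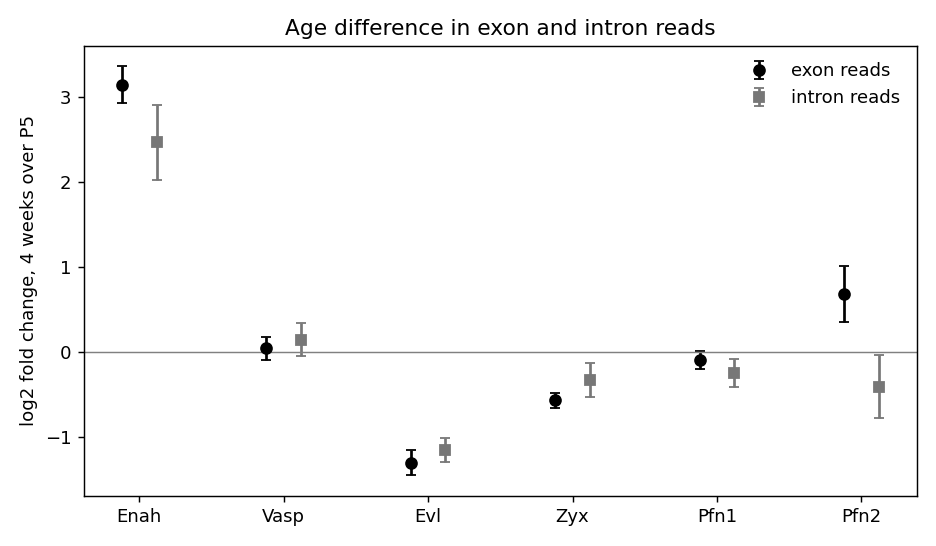
Log2 fold change of 4 weeks over P5 (y axis) of each member (x axis) from exon reads (black circles) and intron reads (grey squares), with the SE of each fit. Enah stands at 3.15 in exon and 2.47 in intron reads and Evl at -1.30 and -1.15, while Pfn2 is at 0.68 in exon reads and -0.41 in intron reads.

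Levels were compared between genes as exon CPM per kb of exon. At 4 weeks the order of mean levels was Pfn1 at 261, Zyx at 58.0, Vasp at 32.1, Evl at 6.59, Enah at 4.61 and Pfn2 at 2.15 CPM per kb. Evl and Enah were the one pair of neighbours whose 4-week ranges overlapped, 5.37 to 7.24 and 3.71 to 5.69 CPM per kb. Their order depends on whether reads not mapped uniquely are counted. By unique reads over the full exon lengths Enah was above Evl at 4 weeks, but bases where no read can be unique were not taken out. At P5 the order was Pfn1 at 278, Zyx at 85.9, Vasp at 31.1, Evl at 16.2, Pfn2 at 1.33 and Enah at 0.517 CPM per kb, and no neighbours overlapped. Among the 12235 tested genes, Enah held rank 9264 at 4 weeks and rank 11893 at P5, near the bottom, while Evl held rank 8397 at 4 weeks and 4764 at P5. Zyx held rank 805 at 4 weeks and 436 at P5, and Pfn1 rank 111 at 4 weeks and 114 at P5. Exon length in the files was 13593 bases for Enah, so its reads were spread over a far longer model than the 2252 bases of Vasp or the 2736 bases of Evl.

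The 3 paralogs together stood at 43.3 ± 5.43 CPM per kb at 4 weeks and 47.9 ± 5.24 CPM per kb at P5 (SD, n = 4 each), and these sums overlapped. Their makeup differed more than their sum did. Enah made up 8.41, 15.6, 8.94 and 10.5% of the sum in 4-week replicates 1 to 4, and 0.803, 0.835, 1.22 and 1.46% in P5 replicates 1 to 4. Evl made up 11.5, 19.9, 16.4 and 14.3% of it at 4 weeks, and 37.9, 31.9, 34.1 and 31.3% at P5. Neither share overlapped between the ages. Vasp was the main paralog in every library, with 73.6% ± 6.56 at 4 weeks and 65.1% ± 2.82 at P5 (SD, n = 4 each), and its ranges overlapped. The level of Evl was 1.46 ± 0.256 times that of Enah at 4 weeks and 33.7 ± 11.3 times at P5 (SD, n = 4 each). Pfn1 stood at 123 ± 21.0 times the level of Pfn2 at 4 weeks and 213 ± 36.5 times at P5 (SD, n = 4 each). These shares are built from the exon reads that entered the choice of the members and rest on the exon models of the files. They also count reads that were not mapped uniquely. At 4 weeks 51.9% of Evl, 65.4% of Vasp and 99.9% of Enah exon reads were unique. Unique reads at 4 weeks averaged 59 over 2736 bases for Evl and 396 over 13593 bases for Enah. By unique reads alone, Enah was thus above Evl per base in every 4-week library.

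**Figure D4:**
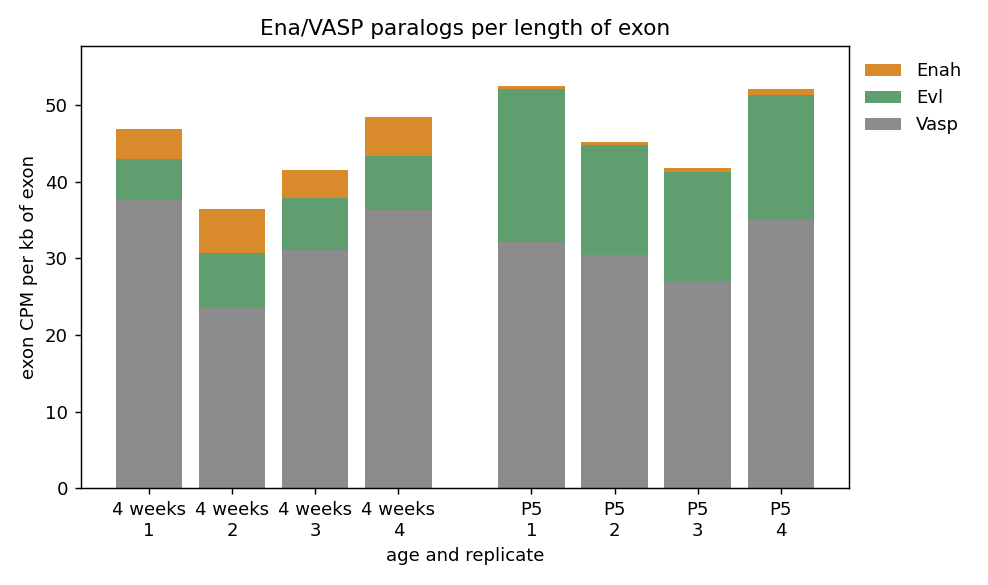
Exon CPM per kb of exon (y axis, from 0) of Vasp, Evl and Enah, stacked for each library (x axis, age and replicate). The bars reach 36.4 to 48.4 at 4 weeks and 41.8 to 52.4 at P5, and the Enah segment is at most 1.46% of the bar at P5 and at least 8.41% at 4 weeks.

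Markers of other cells that carry Ena/VASP proteins were read beside these values, and their part in the differences was not tested. The 8 megakaryocyte and platelet markers summed to 161 to 233 CPM at 4 weeks and 97.8 to 120 CPM at P5 (two-sided exact permutation p = 0.0286, the smallest that 70 splits allow, adjusted p = 0.0571 over 8 marker lists). Itgb3, the integrin beta chain of the platelet fibrinogen receptor, was the one called higher, with 110 ± 30.6 CPM at 4 weeks and 14.0 ± 3.80 CPM at P5 (SD, n = 4 each). Gp9, a chain of the platelet von Willebrand factor receptor, was called lower, with means of 11.1 CPM at 4 weeks and 27.8 CPM at P5. Without Itgb3, a sum formed after its values were seen, the other 7 markers stood at 66.4 to 84.6 CPM at 4 weeks and 80.3 to 104 CPM at P5. The endothelial list, led by Vwf, ran from 491 to 635 CPM at 4 weeks and from 555 to 723 CPM at P5 (two-sided exact permutation p = 0.2, adjusted p = 0.267). Of its 7 tested members 2 were called, against 16.5% of all tested genes, and both were lower at 4 weeks, as Evl and Zyx were. Vwf leaned the other way, with 302 ± 44.7 CPM at 4 weeks and 269 ± 41.1 CPM at P5 (SD, n = 4 each), and did not pass (edgeR adjusted p = 0.396). Cdh5, the cadherin of endothelial junctions, had 1 read over the 4-week libraries and 285 over the P5 libraries, and Tek, an angiopoietin receptor, stood at 96.3 ± 10.9 CPM at 4 weeks and 151 ± 12.7 CPM at P5 (SD, n = 4 each, edgeR adjusted p = 0.000474). The stromal and mesenchymal list, led by Col1a2, ran from 15.7 to 85.5 CPM at 4 weeks and from 18.6 to 31.7 CPM at P5, and its highest library, 4-week replicate 4, held 50.4 CPM of the chemokine Cxcl12 where no other library passed 0.862 CPM. The one called member of that list was Pdgfrb, a growth factor receptor of pericytes, with 10.9 ± 3.02 CPM at 4 weeks and 3.32 ± 0.342 CPM at P5 (SD, n = 4 each, log2 fold change 1.71, edgeR adjusted p = 0.000797), higher at 4 weeks in every library as Enah was, while Col1a2 stood at 7.87 ± 3.76 CPM at 4 weeks and 14.5 ± 8.45 CPM at P5. Among the 4-week libraries Cxcl12 was highest in replicate 4, Pdgfrb in replicate 3, at 15.1 CPM, and Enah in replicate 2, at 77.4 CPM. The part of stromal cells in the Enah values was not tested.

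The markers that the sort should exclude summed to 20.5 to 31.9 CPM at 4 weeks and 62.6 to 106 CPM at P5, mostly Itgam, and their adjusted p was 0.0571 by the same exact permutation test. Itgam and Cd4 were called lower at 4 weeks, Cd4 with 6.09 ± 1.30 CPM at 4 weeks and 15.6 ± 3.87 CPM at P5 (SD, n = 4 each). The erythroid list, mostly the globin Hbb-bt, ran from 94.6 to 138 CPM at 4 weeks and from 584 to 922 CPM at P5, and the lymphoid list, mostly Cd79b, from 21.3 to 26.8 CPM at 4 weeks and from 33.3 to 51.3 CPM at P5. Each had the same exact permutation p and adjusted p, and each moved in the direction of Evl and Zyx. The myeloid list, led by Lyz2, ran from 178 to 203 CPM at 4 weeks and from 183 to 392 CPM at P5, and its highest library, P5 replicate 2, held 158 CPM of the cytokine receptor Csf1r where no other library passed 7.92 CPM. Besides Csf1r, Mpo was called lower at 4 weeks and S100a8, at 0 in every P5 library, was called higher. P5 replicate 2 was also the highest library for Itgam, at 83.0 CPM. Of the defining markers, Cd3e, Cd3g, Ly6g, Alas2 and Ctsg were at 0 in all 8 libraries. The part of these markers in the lower values of Evl and Zyx at 4 weeks was not tested.

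The genes whose log2 CPM most resembled each member over the 8 libraries were looked for among 8575 abundant tested genes. For Enah they were Fut8, a fucosyltransferase of N-glycans (r = 0.991), Xbp1, a transcription factor of the unfolded protein response (r = 0.991), Mlec, an endoplasmic reticulum lectin (r = 0.988), Wrnip1, a DNA replication-associated ATPase (r = 0.987), and Fam69b (r = 0.987). For Evl they were Tpm4, a tropomyosin that lines actin filaments (r = 0.990), and Prcp, a lysosomal carboxypeptidase (r = 0.990), and for Zyx Msn, the membrane-actin linker moesin (r = 0.987), and Abi3, a WAVE complex subunit (r = 0.986). When the age means were removed, r with Enah was 0.892 for Fut8, 0.792 for Xbp1, 0.702 for Mlec, 0.678 for Wrnip1 and 0.619 for Fam69b. It was 0.879 for Tpm4 and 0.850 for Prcp with Evl, and 0.918 for Msn and 0.922 for Abi3 with Zyx. Vasp was most like Fam179b (r = 0.972) and Uckl1 (r = 0.954), Pfn1 like Gltp (r = 0.958) and Taf6l (r = 0.952), and Pfn2 like Nmi (r = 0.968) and Birc2 (r = 0.966). All of these are correlations over 8 libraries in 2 age groups, taken as the highest of many, and are given as a description.

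Genes of the actin machinery around the family were counted in 10 lists, 98 genes in all, of which 84 were tested. Of these, 5 were higher at 4 weeks, 22 were lower and 57 did not pass (quasi-likelihood test of edgeR, p adjusted over all tested genes). The called share was 32.1%, against 16.5% of all tested genes, and the median log2 fold change was -0.11, against 0.004 over all genes. By list it ran from 0% for actins to 55.6% for Arp2/3 subunits, and was 14.3% for other EVH1-domain proteins and for kinases. Of all tested genes, 8.55% were called higher and 7.99% lower, the shares to set beside each list below. The lists were chosen with earlier results of these data known and no set test was run, so nothing is read from these shares. Over 19 alternative settings, 13 of the 27 calls were kept in every setting, and 10 were lost in at least 1 fit that left out a single library. The lower calls numbered 12 without 4-week replicate 1 and 14 without 4-week replicate 4, and the higher calls 8 without P5 replicate 1. With Y-linked reads as a covariate 10 of the 27 calls were lost, those of Ajuba, Palld, Was, Arpc1b, Arpc2, Arpc4, Cfl1, Dstn, Add3 and Prkg1, and in the 6 libraries with Y-linked reads 9, those of Ajuba, Palld, Arpc1b, Arpc2, Cfl1, Dstn, Twf2, Add3 and Prkg1. With exon and intron reads added 6 were lost, those of Ajuba, Palld, Was, Arpc3, Add3 and Mkl1, and Add3 and Mkl1 turned direction.

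Of 12 proteins that carry EVH1-binding stretches or are related to zyxin, 1 gene rose and 5 fell at 4 weeks. Lpp, a zyxin relative at adhesions, rose to 231 ± 12.9 CPM at 4 weeks, against 180 ± 10.1 CPM at P5 (SD, n = 4 each, log2 fold change 0.36, edgeR adjusted p = 0.00481). Vcl, the adhesion protein vinculin, fell to 118 ± 11.3 CPM at 4 weeks, against 163 ± 17.6 CPM at P5 (SD, n = 4 each, log2 fold change -0.47, edgeR adjusted p = 0.00457). Fyb, the adaptor ADAP that binds EVL and VASP in lymphocytes and platelets, fell to 54.4 ± 7.82 CPM at 4 weeks, against 104 ± 32.0 CPM at P5 (SD, n = 4 each, log2 fold change -0.94, edgeR adjusted p = 0.00309), where P5 replicate 2 was highest at 148 CPM. The calls of these 3 genes were kept in all 19 settings. Tes, the most abundant per length, stood at 120 ± 14.0 CPM at 4 weeks and 144 ± 8.41 CPM at P5 and did not pass (edgeR adjusted p = 0.0765). The other called members, Ajuba, Raph1 and Palld, were lower too, and each lost its call without 4-week replicate 1 (edgeR adjusted p = 0.0703, 0.0667 and 0.0996) and without 4-week replicate 4 (0.0734, 0.0623 and 0.105). Raph1 also lost it without 4-week replicate 3 (0.0509), Ajuba without P5 replicates 1 and 2 (0.0629 and 0.0594), and Palld without P5 replicates 1 and 3 (0.0948 and 0.0521).

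Among 7 tested genes with an EVH1 domain outside the family, Was, the Wiskott-Aldrich protein that activates Arp2/3 in blood cells, was called lower, with 70.4 ± 3.19 CPM at 4 weeks and 89.8 ± 11.7 CPM at P5 (SD, n = 4 each, log2 fold change -0.35, edgeR adjusted p = 0.0322). That call was lost when 4-week replicate 1, 3 or 4 or P5 replicate 1 or 2 was left out (edgeR adjusted p = 0.0758, 0.0810, 0.0782, 0.0719 and 0.0809).

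Formins, which lengthen unbranched filaments as Ena/VASP proteins do, gave 2 higher and 1 lower call among 13 tested. Diaph1 rose to 432 ± 25.5 CPM at 4 weeks, against 242 ± 17.2 CPM at P5 (SD, n = 4 each), a log2 fold change of 0.83 (SE 0.0771, edgeR adjusted p = 9.6e-06). Inf2 rose to 224 ± 16.2 CPM at 4 weeks, against 160 ± 18.5 CPM at P5 (edgeR adjusted p = 0.00291), and Diaph2 fell to 77.5 ± 4.399 CPM at 4 weeks, against 109 ± 11.8 CPM at P5 (SD, n = 4 each, edgeR adjusted p = 0.00294). These calls were kept in all 19 settings, and formins called higher numbered 4 without P5 replicate 1. Fmnl1, the most abundant per length, stood at 428 ± 32.0 CPM at 4 weeks and 492 ± 26.0 CPM at P5 and did not pass (edgeR adjusted p = 0.0918).

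Arp2/3, the complex that starts branched filaments, had 5 of its 9 genes called lower at 4 weeks and none higher, against 7.99% lower and 8.55% higher of all tested genes. All 9 log2 fold changes were below 0, with a median of -0.23, and 8 of the 9 stayed below 0 in both settings that use Y-linked reads. Arpc5 fell to 159 ± 5.82 CPM at 4 weeks, against 209 ± 6.47 CPM at P5 (SD, n = 4 each, edgeR adjusted p = 0.00142), in every setting. Arpc3 fell to 44.9 ± 2.54 CPM at 4 weeks, against 63.0 ± 1.37 CPM at P5 (SD, n = 4 each, edgeR adjusted p = 0.00325), a call lost with exon and intron reads added (adjusted p = 0.618). The calls of Arpc2 (edgeR adjusted p = 0.0261), Arpc4 (0.0290) and Arpc1b (0.04996), the most abundant per length, were lost without 4-week replicate 1 (0.0631, 0.0782 and 0.136), without 4-week replicate 3 (0.0823, 0.0841 and 0.137) and without P5 replicate 1 (0.0628, 0.0665 and 0.0994). Arpc4 and Arpc1b also lost theirs without 4-week replicate 4 (0.0704 and 0.0902) and P5 replicate 4 (0.0600 and 0.102), and Arpc1b without P5 replicates 2 and 3 (0.0606 and 0.0537).

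In the WAVE complex and its relatives, 1 of 11 tested genes rose and 2 fell at 4 weeks. Nckap1 rose to 35.9 ± 5.29 CPM at 4 weeks, against 17.1 ± 3.02 CPM at P5 (SD, n = 4 each, log2 fold change 1.06, edgeR adjusted p = 0.000523). Nckap1l, its paralog of blood cells, stood at 485 ± 27.6 CPM at 4 weeks and 537 ± 45.8 CPM at P5 and did not pass (edgeR adjusted p = 0.237). Abi3 fell to 42.4 ± 8.97 CPM at 4 weeks, against 73.5 ± 6.19 CPM at P5 (edgeR adjusted p = 0.00161), and Wasf2 to 334 ± 18.6 CPM at 4 weeks, against 419 ± 6.25 CPM at P5 (SD, n = 4 each, edgeR adjusted p = 0.0047). All 3 calls were kept in every setting.

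Of the actin genes, 3 were tested and none passed, with Actb at 4040 ± 430 CPM at 4 weeks and 4842 ± 584 CPM at P5 (SD, n = 4 each, edgeR adjusted p = 0.104), and 1 was called lower by DESeq2. The unadjusted p of Actb in the edgeR fit was 0.0241, and those of the other tested actin genes, Actg1 and Acta2, were 0.872 and 0.505. Monomer-binding and severing proteins gave 4 lower calls among 10 and no higher one. Tmsb10, a thymosin that sequesters monomers, fell to 5.18 ± 1.28 CPM at 4 weeks, against 14.4 ± 3.32 CPM at P5 (SD, n = 4 each, log2 fold change -1.47, edgeR adjusted p = 0.00155), in every setting. Cfl1, the severing protein cofilin, fell to 604 ± 52.2 CPM at 4 weeks, against 813 ± 113 CPM at P5 (SD, n = 4 each, edgeR adjusted p = 0.00979), a call lost with Y-linked reads as a covariate (adjusted p = 0.116) and in the 6 libraries with Y-linked reads (0.0697). Twf2, a twinfilin, fell to 40.6 ± 1.35 CPM at 4 weeks, against 53.4 ± 1.57 CPM at P5 (SD, n = 4 each, edgeR adjusted p = 0.0132), a call lost in the 6 libraries with Y-linked reads (adjusted p = 0.055). The fourth call, Dstn, was lost without 4-week replicate 1 and without P5 replicates 1 and 3 (edgeR adjusted p = 0.0674, 0.0573 and 0.0582).

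Capping proteins, which compete with Ena/VASP proteins for the barbed end, were listed with regulators of capping protein such as Rltpr. Together they gave 3 lower calls among 9 and no higher one. Capg fell to 108 ± 1.95 CPM at 4 weeks, against 188 ± 20.5 CPM at P5 (SD, n = 4 each), a log2 fold change of -0.80 (SE 0.0861, edgeR adjusted p = 3.1e-05). Rltpr, a regulator of capping protein in T cells, fell to 215 ± 12.3 CPM at 4 weeks, against 290 ± 35.7 CPM at P5 (SD, n = 4 each, edgeR adjusted p = 0.00474). Both were kept in all settings. Add3 was called lower (edgeR adjusted p = 0.0193) but not without 4-week replicate 1 or 4 or P5 replicate 3 (0.0676, 0.0709 and 0.0566), and with exon and intron reads added its log2 fold change was 0.033 (adjusted p = 0.844). Capzb, the most abundant per length, stood at 198 ± 22.1 CPM at 4 weeks and 233 ± 23.5 CPM at P5 and did not pass (edgeR adjusted p = 0.11).

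Of 7 tested kinases that phosphorylate Ena/VASP proteins, Prkg1, the cyclic GMP-dependent kinase, rose to 145 ± 16.4 CPM at 4 weeks, against 101 ± 14.9 CPM at P5 (SD, n = 4 each, edgeR adjusted p = 0.00698), a call lost with Y-linked reads as a covariate (adjusted p = 0.0833) and in the 6 libraries with Y-linked reads (0.0727). Prkacb, a catalytic subunit of the cyclic AMP-dependent kinase and the most abundant per length, stood at 315 ± 17.0 CPM at 4 weeks and 306 ± 23.3 CPM at P5. SRF and its actin-regulated coactivators gave 1 lower call among 3, Mkl1, at 106 ± 6.14 CPM at 4 weeks and 129 ± 13.3 CPM at P5 (SD, n = 4 each, edgeR adjusted p = 0.0433). That call was kept in only 1 of the 8 fits that left out a library, the fit without P5 replicate 1, and the adjusted p in the other 7 fits ran from 0.0535 to 0.118. With exon and intron reads added the log2 fold change of Mkl1 was 0.19 (adjusted p = 0.403).

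**Figure D5:**
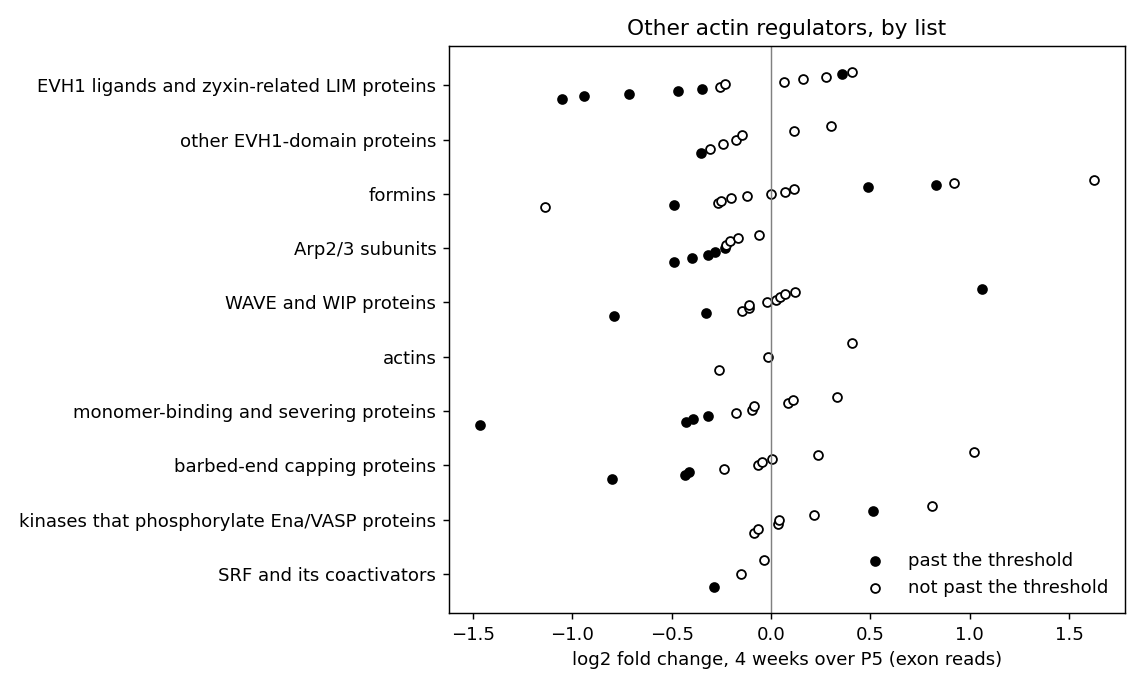
Log2 fold change in exon reads of 4 weeks over P5 (x axis) of each tested gene (points) in the 10 lists of actin regulators (y axis), with filled points past the threshold and open points not past it. All 9 Arp2/3 points lie left of 0, and formin points lie on both sides, with Diaph1 at 0.83 and Diaph2 at -0.49.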

How the data were processed

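Per the labels' protocols, 100 cells were sorted per library and Nextera XT libraries, which carry no strand information, were made. The authors deposited, for each of 48835 gene rows per library, raw counts of exon, intron, junction and uniquely mapped reads. The submitters' processing notes name the build mm10, with aligner and counting program not given in the sources used here. Levels per kb were computed from the counts and the exon lengths of the files, and the authors' RPKM values were not used. In 1 file, 24 names turned into dates were restored by row order.

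Copies of a gene were summed. Exon reads and, apart, intron reads were fitted with edgeR 4.0.16 (TMM, filterByExpr, quasi-likelihood test, age as the term) in R 4.3.3, with Benjamini-Hochberg adjustment over all genes kept and a threshold of 0.05. The filter kept genes holding 99.8% of exon reads. CPM are normalised counts, and SE values come from the F statistic and are approximate. Junction reads were scaled as exon reads. Alternatives were a replicate block, each library left out, no filter or 5 CPM in 4 libraries, DESeq2 size factors, DESeq2 1.42.0, limma-voom, copies not summed, unique reads, exon plus intron reads and Y-linked reads (present above 100). The pipeline was tested on simulated data. Reads carry no molecular identifiers, so counting errors cover counting alone. Promoters are RefSeq's, on GRCm38.p6.

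The members, gene lists, tests and alternatives were chosen with earlier results of these data known. Named were the members, in each actin list up to 3 called genes with the smallest p-value and the gene with the highest exon CPM per kb, the genes most like a member, the gene with the highest CPM of each marker list, and the gate's genes. Ajuba, Raph1, Palld, Arpc4, Dstn, Ly6a, Fgd5, Mecom, Cd4, Gp9, Cdh5, Tek, Pdgfrb, Cxcl12, Csf1r, Mpo, S100a8, Actg1, Acta2 and the genes overlapping members were named after their values were seen.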

Additional observations from a re-analysis of the deposited data

Results flagged for a closer look

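In 62 sets of 4 libraries, each a measure of a member or of the makeup of the family at 1 age, the highest or lowest library was compared with the rest. A gap larger than Dixon's 95% critical value for the ratio of gap to range was looked for. Chance alone gives such a gap in about 1 of 20 separate sets, but these sets share reads, so that rate is a rough guide. Such a gap was found in 5. The junction reads of Vasp in P5 replicate 4 stood at 26.9 CPM, above the 22.1 to 22.8 CPM of the other P5 libraries. The intron share of Pfn1 reads in P5 replicate 1 was 6.63%, below 13.2 to 13.5% in the other P5 libraries, and that library also had the lowest intron share over all genes. Junction reads of Pfn2 stood at 0.689 CPM in 4-week replicate 2 and at 0.162 CPM in P5 replicate 3, which are 4 reads and 1 read, with 0 in the other libraries of the same age. With 0 in all others the ratio of gap to range is 1 for any count, so these flags carry no weight. The ratio of Evl to Enah per kb was 1.84 in 4-week replicate 3, against 1.27 to 1.37 in the other 4-week libraries.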

How the results depend on the processing

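Over the 19 alternatives for exon reads, the log2 fold change ran from 2.65 to 3.40 for Enah, -1.41 to -1.10 for Evl, -0.63 to -0.52 for Zyx, -0.04 to 0.15 for Vasp, -0.20 to 0.007 for Pfn1 and 0.017 to 0.78 for Pfn2. These ranges describe members chosen with the difference known and are no support for it. The 2.65 of Enah and the 0.017 of Pfn2 came from exon plus intron reads. Pfn1 gave no value with unsummed copies or unique reads, and Pfn2 none with the 5 CPM filter. In intron reads, Zyx ran from -0.51 to -0.21.

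Counts of called genes moved more. With the replicate block 1300 genes were called, 577 of them lower, and 11 actin genes were lower. The calls of Ajuba, Palld, Was, Arpc1b, Arpc2, Arpc4, Cfl1, Dstn, Twf2, Add3 and Mkl1 were lost there (adjusted p = 0.0520 to 0.140). Replicate numbers are those of the sample titles, and the file headers of 4-week replicates 1 and 2 carry run numbers in the opposite order. By title, same-numbered libraries of the ages did not deviate together (r = -0.0309, -0.236, -0.0955 and -0.0517), and 0 of 4 libraries resembled their own number best, so these numbers were not taken to pair libraries. With Y-linked reads as a covariate 1236 genes were called (608 higher, 628 lower) and 13 actin genes were lower. In the libraries with Y-linked reads 1257 were called (638 higher, 619 lower) and 14 actin genes were lower, and both settings rest on 2 P5 libraries. DESeq2 and exon plus intron reads each called 9 actin genes higher. Leaving out 1 library gave 12 to 24 lower and 5 to 8 higher actin genes. The cause of these moves was not tested. Depth limits Pfn2 and the junction reads of Enah at P5, where a few reads make up each value.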
